A study of Mus musculus with 2 samples.

Results

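The ribosomal protein genes of the mouse were taken as the gene symbols that start with Rpl or Rps followed by a digit or P, without the names of pseudogenes (-ps) and without the Rps6k kinases. Of 32285 genes in the table, 100 symbols fitted the pattern. After 5 pseudogene names and 10 Rps6k genes were taken out, 85 members were left, 52 with an Rpl symbol for the large subunit and 33 with an Rps symbol for the small subunit. One member, Rps19bp1, encodes a protein that binds a ribosomal protein and is not part of the ribosome. The pattern misses some genes of ribosomal proteins, among them Rpsa, Fau and Rack1, which are described separately.

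A ribosome holds 1 copy of most of these proteins, and most of the genes are transcribed at high levels in growing cells. Many of their mRNAs start with a cytosine followed by a run of pyrimidines, the 5′ TOP motif, through which the mTOR pathway and LARP1 control their translation. Some members have a paralog with a restricted expression, such as Rpl3l in adult heart and skeletal muscle and Rpl10l in testis.

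The data were single-cell RNA libraries (10x Genomics 3′ chemistry) of tdTomato-positive cells sorted from trunk and limbs of E14 mouse embryos. In these mice Myf5-Cre, which is active in muscle progenitors and in some other embryonic lineages, turns on the tdT reporter, and both libraries carry Myf5-Cre and tdT. Library A is labelled SRSF2f/f/Myf5-Cre/tdT, which stands for 2 floxed alleles of the splicing factor gene Srsf2. Library B is labelled SRSF2f/w/Myf5-Cre/tdT, which stands for 1 floxed and 1 wild-type allele. There was 1 library of each, so no test between them was possible. Ratios are log2 values of library B over library A, made from sums of UMIs (unique molecular identifiers, each standing for 1 captured transcript). The 95% intervals given in parentheses cover counting error only, not the difference between embryos.

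The labels of the libraries are in doubt. The headings of the quality plots of the study give the opposite assignment, and the key of another plot gives that of the labels. Srsf2 (chromosome 11, 116849901 to 116853094, minus strand, GRCm38) had 219 CPM (counts per 1000000 UMIs of those cells) in library A, labelled with both floxed alleles, and 153 CPM in library B, a ratio of -0.52 (-0.54 to -0.49), which goes against the labels. The 3′ reads need not lie in the deleted part, so this level does not count the cells that lost the gene. The Srsf2 ratio lay below 0 in all 10 cell classes described below other than Ery-like, from -0.67 to -0.22. Its interval lay below 0 in 9 of them. The numbers of cells that the study kept of each genotype run with the labels, and its shares of muscle cells run against them, given 2051 SKM-like cells of 12523 in library A and 97 of 10345 in library B. The libraries are therefore called A and B, and no direction below is tied to a genotype.

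After filters, 12523 of 15268 barcodes were kept in library A and 10345 of 12498 in library B, with medians of 10751 and 9480 UMIs per cell. The libraries had 74 barcode sequences in common. Cells were put into 11 classes by UMI limits on 6 markers each. All 6 were detected in their class in both libraries, but the limits ask for UMIs of these markers, so this does not check the classes. The classes are SKM-like (skeletal muscle), Epi-like (epithelial), Immu-like (immune), Chon-like (cartilage), Osteo-like (bone), Endo-like (endothelial), Peri-like (pericyte), Mesen-like (mesenchymal), Sch-like (Schwann cell), Neu-like (neuron) and Ery-like (erythroid). The leading genes of the Immu-like class included the neutrophil genes S100a9, S100a8, Camp and Ngp and the mast-cell genes Cma1 and Cpa3. The others were Ccl4, Stfa1, Lyz2 and Srgn, and none of the markers of this class was among them. The leading genes of the Sch-like class included the melanocyte genes Dct and Pmel. Library A held 2051 SKM-like cells and library B 97. In the other classes the muscle markers summed to 11.3 to 24.8 CPM in library A and to 0 to 8.05 CPM in library B, beside 1018 and 1023 CPM in the SKM-like cells. No cell that met the limit on muscle markers could enter another class, so this contrast follows in part from the rule.

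Ribosomal protein transcripts made up 25.1% of all UMIs in library A, labelled SRSF2f/f/Myf5-Cre/tdT, and 23.9% in library B, labelled SRSF2f/w/Myf5-Cre/tdT, a ratio of -0.073 (-0.073 to -0.072). This difference moved with the cell classes: when both libraries were given the same shares of classes, the ratio was -0.020. Cycling cells, with at least 2 UMIs of Mki67 and Top2a, were 33.5% of library A and 21.7% of library B. The cells that met no class, 1866 and 1776, had 25.4% and 22.9%.

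The share differed between cell classes. SKM-like cells had 30.6% (30.6 to 30.7) in library A and 30.5% (30.4 to 30.6) in library B, and Epi-like cells 30.6% and 30.5%. Immu-like cells followed with 26.3% and 29.2%. Osteo-like cells had 24.9% and 27.4%, Chon-like cells 25.1% in both libraries and Endo-like cells 24.4% and 25.2%, in an order that differed between the libraries. Mesen-like cells had 21.5% and 21.7%, Sch-like cells 21.4% and 21.5%, and Peri-like cells 21.5% and 22.7%. Neu-like cells had 16.4% and 15.6%, the lowest of the 10 classes other than Ery-like. The highest of these 10 classes was 1.87 times the lowest in library A and 1.96 times in library B, and SKM-like, Epi-like and Immu-like cells came first and Peri-like, Mesen-like, Sch-like and Neu-like cells last in both libraries.

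Neighbouring classes overlapped cell by cell. In library A, the quartiles over SKM-like cells were 28.5% and 33.8%, those of Chon-like cells 21.5% and 28.8% and those of Mesen-like cells 18.7% and 24.4%. The quartiles of Neu-like cells, 12.5% and 18.2%, lay below those of Mesen-like cells. Neu-like cells were also among the shallowest, with medians of 6313 and 6585 UMIs per cell, beside 14258 and 14730 in SKM-like cells. Sch-like cells had medians of 6704.5 and 6988 UMIs and Mesen-like cells of 9325 and 9370 UMIs, at shares that differed by less than the quartiles over cells.

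**Figure D1:**
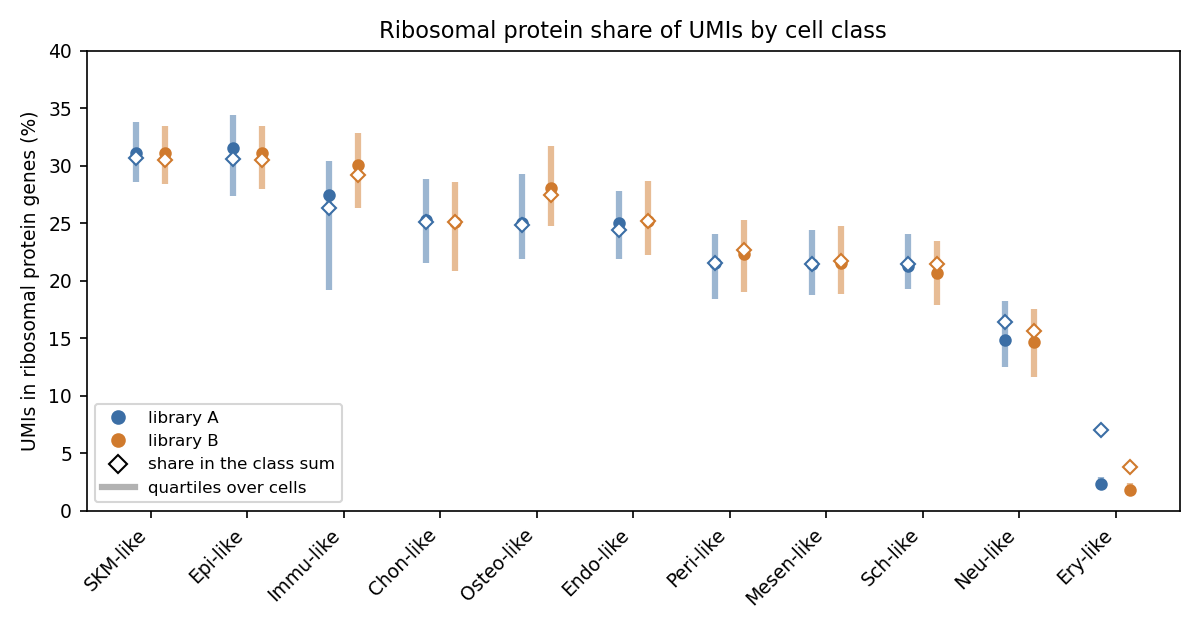
Share of UMIs in the 85 ribosomal protein genes (%) by cell class, in library A (blue) and library B (orange). Circles are medians over cells, thick bars the quartiles over cells and open diamonds the share in the summed UMIs of the class. SKM-like and Epi-like cells lie near 31%, Neu-like cells near 15% and the median Ery-like cell near 2%.

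Immu-like and Osteo-like cells differed most between the libraries outside the erythroid class. Immu-like cells had 26.3% (26.2 to 26.4) in library A, labelled SRSF2f/f/Myf5-Cre/tdT, and 29.2% (29.2 to 29.3) in library B, labelled SRSF2f/w/Myf5-Cre/tdT, and Osteo-like cells 24.9% (24.8 to 24.9) and 27.4% (27.3 to 27.5). The genes of the Immu-like class differed between the 2 libraries. Cpa3, a protease of mast cells, had a UMI in 31.1% of the 103 cells of library A and in 53.7% of the 419 cells of library B, and C1qb, a complement gene of macrophages, in 47.6% and 16.5%. In the other 9 classes, outside Ery-like, these shares were 0.503% to 2.17% and 4.12% to 10.4% for Cpa3 and 0% to 1.81% and 0% to 1.03% for C1qb. The medians of the Immu-like class were 11574 and 12612 UMIs per cell, and those of the other classes lay between 6313 and 15630. Cells with at least 3 UMIs of the mast-cell genes Cpa3 and Cma1 had shares of 29.6% (25 cells) and 30.6% (188 cells), and the others 24.5% (78 cells) and 27.6% (231 cells), so both sets of cells had the higher share in library B. Ccl4, looked at with these genes, had a UMI in 42.7% and 17.7% of the Immu-like cells. Cpa3, Cma1, C1qb and Ccl4 were chosen after their values were seen. Of the 199 and 77 Osteo-like cells, 29.6% and 11.7% were cycling, and within the cells not cycling the shares were 25.4% and 27.8%. The part of these differences in cell makeup was not tested further.

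Ery-like cells, the maturing red blood cells that lose their ribosomes, had the lowest share. The median cell had 2.32% in library A (57 cells) and 1.77% in library B (61 cells), while hemoglobin genes took 74.2% and 82.3% of all UMIs. In the summed UMIs the share was 7.04% and 3.82%, higher than in the median cell. The ratio of the sums, -0.88 (-0.90 to -0.86), changed sign without the cycling cells. In library A, 5 cycling cells had 24.2% together and the 52 others 2.92%. Library B had 1 cycling cell, with 12.5%, and 60 others with 3.59%. The ratio of the cells not cycling was 0.30 (0.27 to 0.33), so no difference between the libraries is read from this class.

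Cycling cells had a lower share than the other cells of their class in SKM-like, Chon-like and Mesen-like cells. In SKM-like cells the share was 29.4% in 1210 cycling and 33.1% in 841 other cells of library A, and 29.1% and 33.4% in library B. In Mesen-like cells it was 20.1% and 22.2% in library A and 20.0% and 22.3% in library B. Neu-like cells had the opposite order, with 18.6% in cycling and 15.8% in other cells of library A and 17.4% and 15.2% in library B. Peri-like cells had it too, with 21.8% and 21.2% in library A and 23.0% and 22.5% in library B. So did Ery-like cells, with 5 and 1 cycling cells. The direction was the same in both libraries in 9 of these 11 classes, with Immu-like and Sch-like cells as the exceptions. Cycling cells, called by a fixed UMI limit, were also deeper. In library A their median UMIs per cell were 16253 beside 11868 in other SKM-like cells and 12262 beside 8630 in Mesen-like cells. In Neu-like cells, with the opposite order of shares, they were 11409 beside 5978. The part of depth in these shares was not tested.

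In muscle cells, members took a higher share of UMIs in the differentiating state, marked by Myog, than in Pax7-positive cells. Pax7 marks muscle progenitors and Myog the myocytes that have left them. Cells with at least 3 Myog UMIs and no Pax7 UMI (Myog-high) had 32.4% ribosomal protein UMIs in library A, labelled SRSF2f/f/Myf5-Cre/tdT, and Pax7-positive cells 29.7%, a ratio of 0.13 (711 and 955 cells). In library B, labelled SRSF2f/w/Myf5-Cre/tdT, the values were 32.5% and 29.0%, a ratio of 0.16 (41 and 33 cells). Median ribosomal protein UMIs per cell were 4390 in Myog-high and 4530 in Pax7-positive cells of library A. In library B they were 4837 and 4668. All UMIs per cell had medians of 13110 and 14981 in library A and 13847 and 15259 in library B. The higher share in library A thus did not go with more ribosomal protein UMIs per cell. Myog-high cells were less often cycling, with 34.7% against 72.0% in library A and 31.7% against 81.8% in library B, and the part of this in the difference was not tested. Among Pax7-positive cells of library A alone, the cells not cycling had 32.0% and the cycling cells 29.0%.

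The shift was small and shared by most members. In library A, 75 of 82 members with at least 200 UMIs had a ratio of Myog-high over Pax7-positive cells above 0, beside 34.8% of all 7758 genes, and the median was 0.12 beside -0.19. In library B, 77 of 79 members lay above 0, beside 47.7% of 811 genes, and the median was 0.17 beside -0.013. A member was counted as higher or lower past 0.32 on the log2 scale, without a test. In library A no member was past that limit in either direction, where 16% of all genes were higher and 39.2% lower. In library B 2 members, Rpl37a and Rpl35, were higher past 0.32, where 12.7% of all genes were, and none was lower, where 25.6% were. Genes with few UMIs pass this limit more easily by counting error, and the genes were not matched for level.

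Of the ratios of Myog-high over Pax7-positive cells in library A, those of the large-subunit genes Rpl37 (0.25), Rpl30 (0.24), Rpl37a (0.24) and Rpl9 (0.23) were among the highest. In library B these were 0.31, 0.18, 0.36 and 0.19, all above 0. The highest in library B was Rpl35 with 0.36 (0.27 to 0.46), beside 0.18 in library A, followed by Rpl37a, Rpl37, Rpl14 (0.29) and Rps21 (0.27). The lowest in library A were paralogs: Rps27l with -0.19 (-0.24 to -0.13), Rpl7l1 with -0.15 (-0.28 to -0.027), Rpl22l1 with -0.054 (-0.085 to -0.024) and Rpl36al with -0.050 (-0.093 to -0.007), together with Rpl7a at -0.061. In library B, where Rpl7l1 had under 200 UMIs in these cells, their intervals all held 0 except that of Rpl7a, 0.15 (0.028 to 0.27), which lay above it. The point levels of these paralogs in library B were higher in Myog-high than in Pax7-positive cells, opposite to library A. For Rps27l they were 505 and 486 CPM, for Rpl22l1 1572 and 1511 CPM, for Rpl36al 920 and 917 CPM and for Rpl7l1 105.6 and 72.7 CPM. Among the lowest in library B were Rps16 (-0.0059), Rpl36al (0.0048), Rps10 (0.018) and Rpl32 (0.029), whose intervals held 0.

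**Figure D2:**
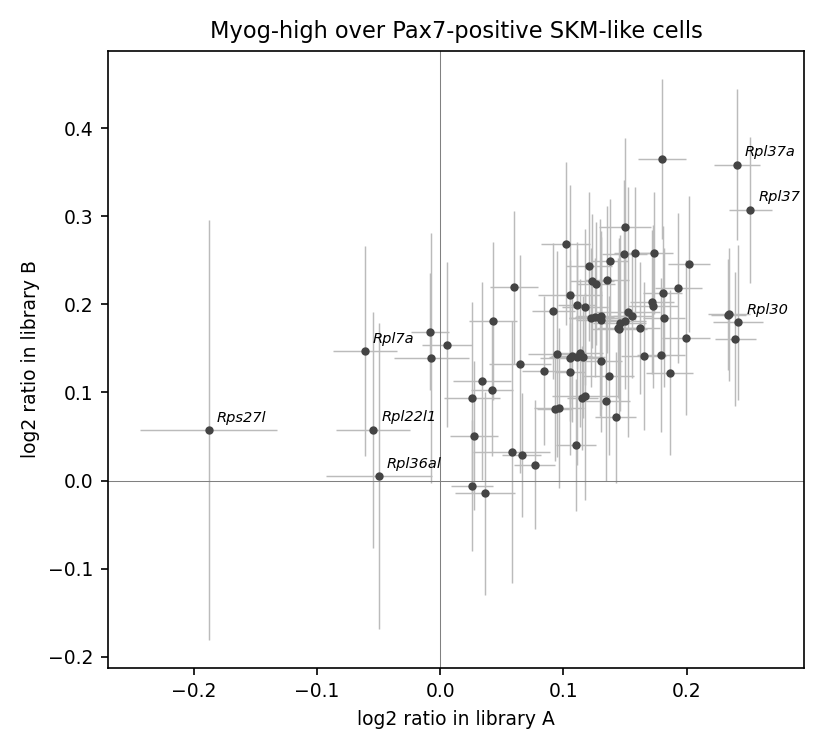
Log2 ratio of Myog-high over Pax7-positive SKM-like cells for 79 ribosomal protein genes, in library A (x axis) and library B (y axis). Points are genes and lines 95% intervals for counting error. Of these genes 71 lie above 0 in both libraries, and Rps27l lies lowest on the x axis.

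Other genes of the pathway differed between these states by group. The 4 ribosomal proteins outside the pattern had median ratios of 0.17 in library A and 0.18 in library B. The 16 other genes known for a TOP start, mostly translation factors, had medians of 0.15 and 0.13. Genes of ribosome biogenesis had medians of -0.25 and -0.17, beside -0.19 and -0.013 over all genes. In library A 7 of 21 were lower past 0.32 and 1 higher, where 39.2% of all genes were lower and 16% higher, so their share of lower genes was not above that of all genes. In library B 2 of 6 were lower and 0 higher, where 25.6% and 12.7% of all genes were. Among the 7 were Ncl, Nop56 and Nop58, which act in the nucleolus on ribosomal RNA. Mitochondrial ribosomal proteins had medians of -0.012 and -0.0084. Of the 12 regulators, 3 were higher and 3 lower in library A. The latter were Myc, Mycn and Trp53, and Cdkn1a, an inhibitor of the cell cycle, was higher by 3.57 in library A and by 3.18 in library B on the log2 scale.

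Between the libraries, most members differed little and a few differed in every class. Of 83 members with at least 200 UMIs in all kept cells, 62 had a ratio below 0 and 21 above it, and the median was -0.066, beside 0.016 over 14478 genes. In library B, labelled SRSF2f/w/Myf5-Cre/tdT, 8 members were lower past 0.32 on the log2 scale, where 14.8% of all genes were, and 1 was higher, where 22.8% were. No member was past 0.58 in either direction, where 5.66% of all genes were lower and 13.2% higher. The median size of the ratio was 0.11 for members and 0.23 for all genes. Ratios of genes with few UMIs scatter more, and the genes were not matched for level here or within the classes below.

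The lower members included Rpl5, Rpl13a, Rpl12, Rps15, Rpl23a, Rps6 and Rplp1. Rpl5, a protein of the 5S particle that can bind Mdm2, had 1510 CPM in library A, labelled SRSF2f/f/Myf5-Cre/tdT, and 1040 CPM in library B, labelled SRSF2f/w/Myf5-Cre/tdT, a ratio of -0.54 (-0.55 to -0.53). Rpl13a, known for its part in silencing of inflammatory mRNAs, had 2064 and 1454 CPM, a ratio of -0.50 (-0.51 to -0.50). Rpl12, a protein of the ribosomal stalk base, had 2551 and 1878 CPM, a ratio of -0.44 (-0.45 to -0.43). Rps15 had 1796 and 1364 CPM (-0.40) and Rpl23a 1669 and 1291 CPM (-0.37). The intervals of these abundant genes are narrow because of their high counts, and the spread between embryos is unknown.

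The highest ratios among members with at least 200 UMIs were those of Rpl39l, Rps24, Rpl15, Rpl36al and Rps20. Rps24, one of the genes changed in Diamond-Blackfan anemia, had 4686 CPM in library A and 5537 CPM in library B, a ratio of 0.24 (0.24 to 0.25). Rpl15 had 3554 and 4107 CPM, a ratio of 0.21 (0.20 to 0.21). Rpl36al had 711 and 770 CPM (0.11) and Rps20 4563 and 4930 CPM (0.11). Rpl39l was far lower in level, with 6.64 and 8.69 CPM and a ratio of 0.39 (0.26 to 0.51), and is described with the paralogs.

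The same genes stood out within single classes, which are parts of the same 2 libraries and so not independent of all kept cells. In Mesen-like cells, 2 of 83 members were lower past 0.32 on the log2 scale, where 15.1% of all genes were, and 0 were higher, where 7.01% were. They were Rpl5, with 1212 CPM in 2729 cells of library A and 925 CPM in 1457 cells of library B (-0.39, -0.42 to -0.36), and Rpl13a, with 1725 and 1333 CPM (-0.37, -0.40 to -0.35). Rpl12 (-0.28) and Rps6 (-0.22) were also among the lowest. The highest were Rpl22l1 (0.30), Rpl15 (0.25), Rps24 (0.19), Rps27rt (0.18) and Rpl41 (0.16), the last a gene of the smallest ribosomal protein.

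Over the 10 classes other than Ery-like, 79 members and 1300 genes had at least 200 UMIs in each. The interval lay below 0 in all 10 classes for 7 members, Rpl12, Rps6, Rpl5, Rpl13a, Rps12, Rpl23a and Rpl10, where 1.31% of all genes did so. It lay above 0 in all 10 for 4 members, among them Rps20, Rpl15 and Rps24, where 1% of all genes did. Members are abundant and so have narrower intervals than most genes, which makes this rule easier to meet for them. By the sign of the ratio alone, 12 members were lower in all 10 classes, where 7.15% of all genes were, and 17 were higher, where 7% were. The sign is also steadier for abundant genes, and the genes were not matched for level. All classes share their library, so the same sign in several classes is not a repeat of the comparison.

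Rpl5 ranged over these classes from -0.52 in Sch-like cells to -0.33 in Immu-like cells, and Rpl13a from -0.52 in Epi-like cells to -0.27 in Osteo-like cells. In SKM-like cells Rpl5 had 1915 CPM in library A and 1387 CPM in library B, and in Neu-like cells 1057 and 777 CPM. Rpl13a had 2541 and 1801 CPM in SKM-like cells and 1479 and 1078 CPM in Neu-like cells. Rpl12 ranged from -0.41 in Neu-like cells to -0.12 in Immu-like cells. On the other side, Rpl15 ranged from 0.16 in SKM-like cells to 0.36 in Osteo-like cells and Rps24 from 0.13 in SKM-like cells to 0.42 in Osteo-like cells. The order of the libraries was thus the same in SKM-like cells, with 2051 and 97 cells, and in Chon-like cells, with 2550 and 2614.

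**Figure D3:**
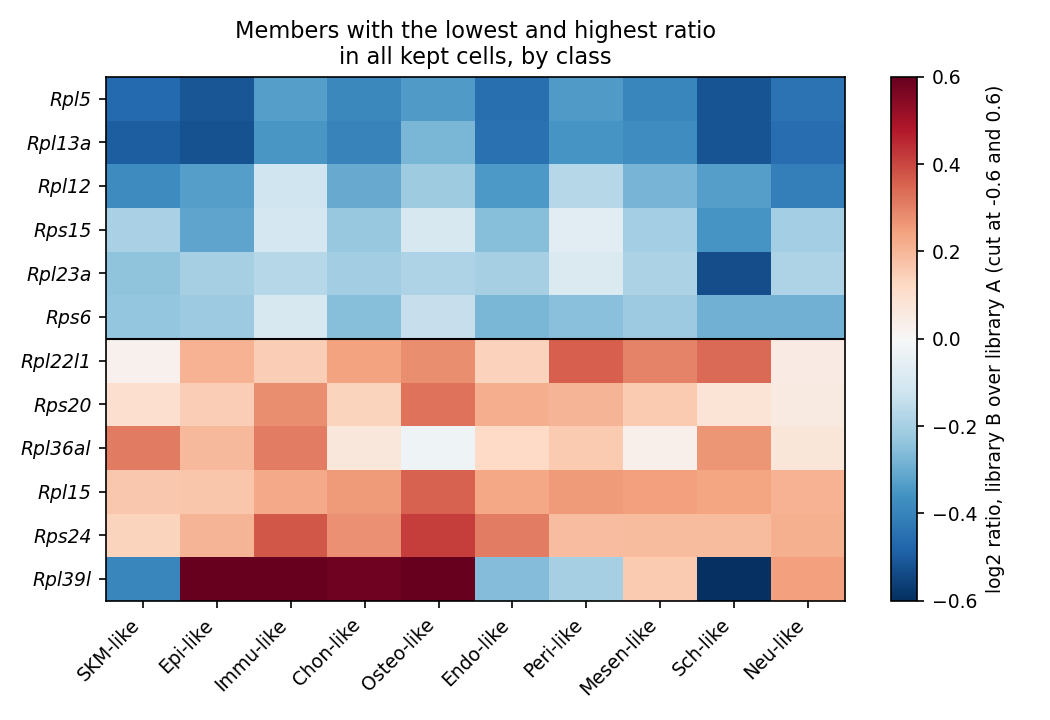
Log2 ratio of library B over library A in 10 cell classes (columns) for the 6 members with the lowest and the 6 with the highest ratio in all kept cells (rows, split by the line); colors are cut at -0.6 and 0.6. Rpl5 and Rpl13a are blue and Rpl15 and Rps24 are red in every class, while Rpl39l, which has few UMIs, changes sign.

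Rack1, a ribosomal protein outside the pattern and a scaffold for kinases, was also lower in library B, labelled SRSF2f/w/Myf5-Cre/tdT, with 1848 CPM in library A and 1318 CPM in library B (-0.49). Its interval lay below 0 in all 10 classes, with ratios from -0.47 to -0.23. Fau had a ratio of 0.15 and lay above 0 in all 10 classes, and Rpsa had -0.0039. The 16 TOP genes had a median of -0.069 in all kept cells, with 1 of them, Eef1g, lower past 0.32. The 22 genes of ribosome biogenesis had a median of -0.23 (5 lower, 0 higher), where 14.8% of all genes were lower and 22.8% higher. Their median was -0.11 in Mesen-like cells (6 of 21 lower, where 15.1% of all genes were) and -0.034 in Chon-like cells (1 of 22 lower and 0 higher, where 11.7% and 6.17% were). The 78 genes of mitochondrial ribosomal proteins had a median of -0.17 (12 lower, 1 higher), a share of lower genes near that of all genes. In SKM-like cells, of which library B held 97, their median was 0.17 (3 lower, 15 higher), where 24.4% of all genes were lower and 10.6% higher. Of the 12 regulators 3 were higher and 0 lower, with a median of -0.015. Mdm2 had a ratio of 0.28 and Cdkn1a of 0.36 in all kept cells, but over the 10 classes they ranged from -0.20 to 0.71 and from -0.25 to 1.03.

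Several introns of ribosomal protein genes hold snoRNA genes, which guide the modification of ribosomal RNA. In the GENCODE annotation of GRCm38, 29 of the 83 members held at least 1 snoRNA gene on their own strand. Rpl5 (chromosome 5, 107900502 to 107909005, plus strand) held 3, Rpl13a (chromosome 7, 45125558 to 45128761, minus strand) 4, Rpl23a 3, Rps12 3, Rpl12 1 and Rpl10 1. Thus 6 of the 7 members that were lower in all 10 classes were such hosts, all but Rps6, and 1 of the 4 that were higher, Rps20. Outside the pattern, Rack1 held 3. Gas5, one of the 16 TOP genes, held 10 entries of this annotation and went the other way. Among these entries Mir5117 has the name of a microRNA, and Snord80 is listed more than once. The ratio of Gas5 was 0.16 in all kept cells, and its interval lay above 0 in 9 of the 10 classes. The hosts among the members did not move as a group, with a median ratio of -0.066 in all kept cells, beside -0.067 in the 54 other members. In Mesen-like cells the medians were 0.023 and 0.028. The lower quartiles were -0.22 in hosts and -0.16 in others over all kept cells. Among genes outside the members, the 243 hosts had a median ratio of -0.095 in all kept cells and the 14143 others one of 0.019. This property was looked at after the ratios were known.

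The starts of some of these genes are shown because the TOP motif, known from many members, lies at the start of the mRNA. RefSeq starts on GRCm38.p6 were found for 68 of 85 members. A cytosine at the annotated start followed by at least 4 pyrimidines was present in 15 of them (22.1%), beside 3.01% of 27025 genes. A cytosine followed by at least 5 pyrimidines on the sense strand from 10 bases before to 20 bases after the start was found in 57.4% and 24.9%. The RefSeq start need not be the start used in these cells. It lay 26 bases inside the GENCODE gene in Rpl5, 16 in Rpl13a, 153 in Rpl12, 405 in Rpl15 and 3553 in Rps24. The windows of 30 bases below are printed 5′ to 3′ with their longest pyrimidine run in capitals and the annotated start at base 11, for 3 members that were lower and 2 that were higher in library B, labelled SRSF2f/w/Myf5-Cre/tdT, in all 10 classes.
Rpl5 (chr5:107900518-107900547, plus strand): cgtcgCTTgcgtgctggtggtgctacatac
Rpl13a (chr7:45128726-45128755, minus strand): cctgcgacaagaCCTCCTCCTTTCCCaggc
Rpl12 (chr2:32961702-32961731, plus strand): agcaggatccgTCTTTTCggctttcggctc
Rpl15 (chr14:18270967-18270996, minus strand): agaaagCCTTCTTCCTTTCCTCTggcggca
Rps24 (chr14:24490668-24490697, plus strand): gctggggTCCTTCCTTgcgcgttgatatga
The run had 14 bases in Rpl13a, 7 in Rpl12, 17 in Rpl15 and 9 in Rps24, so lower and higher members both had one. The longest run in Rpl5 had 3 bases in this window, which leaves out the GENCODE start. Of the 5, Rpl15 had a cytosine followed by at least 4 pyrimidines at the annotated start itself.

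Among the highest levels over both libraries were Rpl13 (7091 CPM in library A and 6707 CPM in library B), Rps27a (5457 and 5406 CPM), Rps29 (5585 and 5054 CPM) and Rps2 (5196 and 5296 CPM), each with a UMI in more than 99% of cells. The lowest above 200 UMIs were Rpl39l, Rps27rt (43.5 and 45.9 CPM), Rps19bp1 (75.7 and 65.8 CPM), Rpl7l1 (74.3 and 69.1 CPM) and Rps27l (365 and 313 CPM), which are paralogs or, for Rps19bp1, no ribosomal protein. Levels between members are uncertain where near-identical pseudogenes take reads, since only uniquely placed reads are counted.

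Spread over classes is the SD of log2(CPM + 1) over the 11 class sums. The median SD of members was 0.61 in library A and 0.88 in library B, beside 0.90 and 1.0 over all genes with at least 200 UMIs. Counting error raises the SD of genes with few UMIs, and the genes were not matched for level. Most of the spread of members came from the Ery-like class: without it the medians were 0.28 and 0.31, beside 0.56 and 0.62. The largest mean SD over the libraries was that of Rpl39l (1.69), followed by Rpl18 (0.81), Rpl14 (0.80), Rpl3 (0.80) and Rpl22l1 (0.80). The smallest were those of Rpl41 (0.55), Rps2 (0.63), Rpl38 (0.63), Rps19bp1 (0.64) and Rplp2 (0.65). Without the Ery-like class Rpl39l kept the largest value, 1.65, and Rps2 came next with 0.42.

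Rpl39l differed most between classes. Its parent Rpl39 encodes a protein of the exit tunnel, and Rpl39l is best known from male germ cells. In Mesen-like cells Rpl39l had 20.1 CPM in library A, labelled SRSF2f/f/Myf5-Cre/tdT, and 22.3 CPM in library B, labelled SRSF2f/w/Myf5-Cre/tdT, and in Peri-like cells 24.1 and 21.0 CPM. In SKM-like cells it had 0.843 and 0.643 CPM (26 UMIs and 1 UMI) and in Endo-like cells 1.37 and 1.14 CPM (6 and 13 UMIs). Chon-like cells lay between with 4.72 and 7.08 CPM and Neu-like cells with 6.22 and 7.38 CPM. Epi-like cells of library A had 0 UMIs, which allows up to 2.26 CPM (3 UMIs), beside 4.68 CPM in library B, and Sch-like cells of library B had 0 UMIs, which allows up to 3.34 CPM. As a share of the pair, Rpl39l was 0.642% (0.590 to 0.697) and 0.730% (0.654 to 0.813) in Mesen-like cells and 0.0236% (0.0154 to 0.0345) and 0.0189% (0.00048 to 0.105) in SKM-like cells. Immu-like cells had 7.12 CPM (10 UMIs) and 21.4 CPM (123 UMIs), and Osteo-like cells 7.12 CPM (22 UMIs) and 27.2 CPM (27 UMIs). The libraries differed there beyond counting error, which leaves out the clustering of UMIs by cell. The genes of the Immu-like class and the share of cycling Osteo-like cells also differed between the libraries, and their part in this was not tested.

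Rpl22l1 was as abundant as its parent Rpl22, with which it shares the binding of RNA, and its share varied by class. It was 51.1% (50.7 to 51.5) of the pair in Mesen-like cells of library A, labelled SRSF2f/f/Myf5-Cre/tdT, and 55.1% (54.6 to 55.6) in those of library B, labelled SRSF2f/w/Myf5-Cre/tdT. Osteo-like cells had the highest shares, 54.6% and 56.7%. SKM-like cells had 44.5% (44.2 to 44.8) and 43.1% (41.8 to 44.5), and Immu-like cells the lowest of the 10 classes, 39.0% and 38.1%. Between libraries, Rpl22l1 was higher in library B in Peri-like (0.36), Sch-like (0.34), Mesen-like (0.30), Osteo-like (0.28) and Chon-like cells (0.24). It was also higher there in Epi-like (1457.5 and 1686.9 CPM), Immu-like (1152 and 1277.9 CPM) and Endo-like cells (1218.5 and 1339.7 CPM). The ratio was 0.024 in SKM-like and 0.049 in Neu-like cells. Within muscle it was 45.7% of the pair in Pax7-positive and 42.8% in Myog-high cells of library A, and 43.9% and 43.2% in library B, where the intervals overlap.

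Rps27l, a gene known as a target of p53, was 11.5% (11.3 to 11.6) of the pair with Rps27 in SKM-like cells of library A and 15.02% (14.1 to 16.0) in the 97 of library B. In Epi-like cells, where it was lowest, it was 7.09% and 7.13%, and in Mesen-like cells 8.96% and 8.43%. In library A it was 12.5% in Pax7-positive and 9.91% in Myog-high cells, and in library B 14.0% (12.4 to 15.6) and 13.4% (12.1 to 14.9). The libraries thus differed in Myog-high cells beyond counting error, with 417 and 505 CPM.

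**Figure D4:**
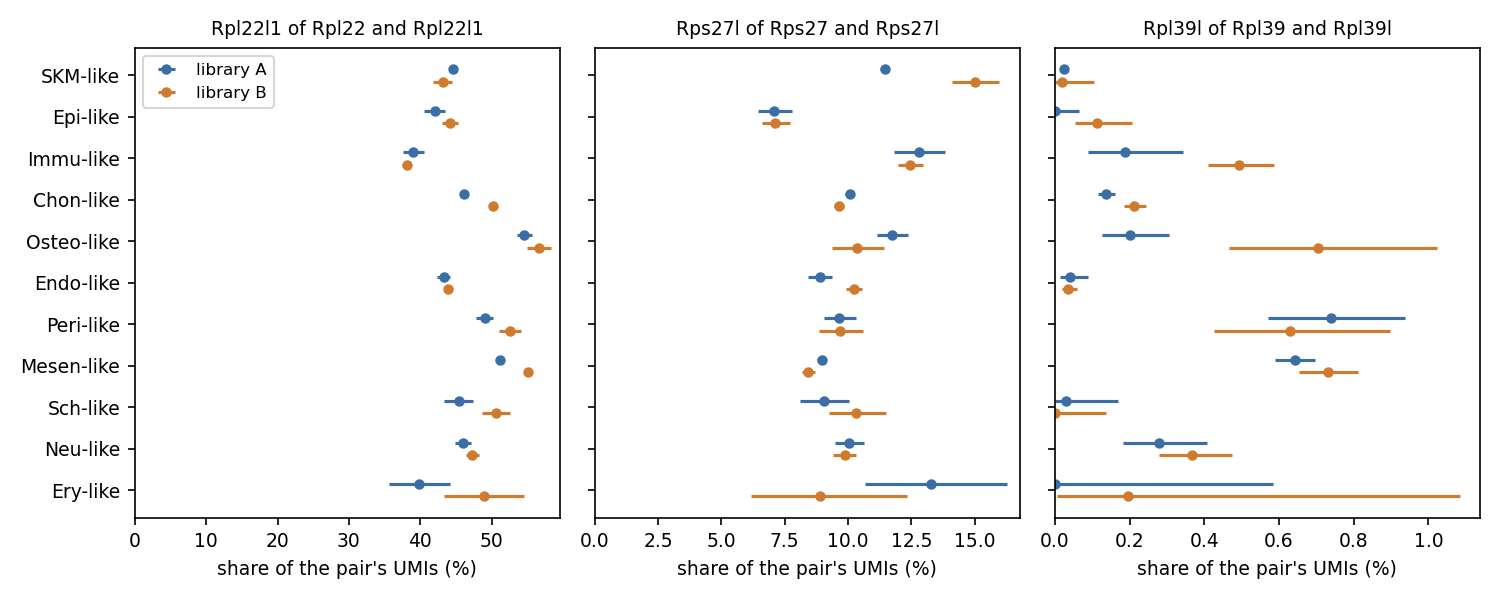
Share of the paralog in the UMIs of its pair (%) by cell class for Rpl22l1, Rps27l and Rpl39l, in library A (blue) and library B (orange); lines are exact 95% intervals and the x axes differ. Rpl22l1 is highest in Osteo-like cells, Rps27l lowest in Epi-like cells and Rpl39l near 0 in SKM-like, Endo-like and Sch-like cells.

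Rpl36al was 30.6% of its pair with Rpl36a in library A, labelled SRSF2f/f/Myf5-Cre/tdT, and 35.1% in library B, labelled SRSF2f/w/Myf5-Cre/tdT. In SKM-like cells it was 27.3% (27.0 to 27.6) and 33.3% (31.9 to 34.7) and in Sch-like cells 28.5% and 34.9%, and Osteo-like cells had 35.6% and 34.4% with overlapping intervals. Rpl7l1, whose product acts in ribosome assembly, was 3.01% and 3.11% of the pair with Rpl7, with 3.47% in Chon-like cells of both libraries and 1.62% and 1.96% in Sch-like cells. Rps27rt, a copy of Rps27 without introns, was 1.36% and 1.60% of its pair. Reads of such a copy and its parent can be taken for each other, so this share is uncertain.

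The paralogs of adult tissues were nearly absent. Rpl3l had 6 UMIs in library A, of which 2 lay in SKM-like cells, and 21 UMIs in library B, of which 0 did, beside 410365 and 317222 UMIs of Rpl3. Immu-like cells held 3 and 8 of them. Rpl10l had 0 UMIs in both libraries, beside 377121 and 266268 UMIs of Rpl10, which allows a share of the pair of up to 0.00080% and 0.0011% (3 UMIs). These 2 were the members under 200 UMIs. The pair of Rps4x and Rps4l was not analysed here.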

How the data were processed

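The authors deposited counts of UMIs per gene and barcode. Per the labels and the study's methods, the authors sorted tdTomato-positive cells, built 10x Genomics 3′ libraries, mapped reads to mm10 without introns and merged the libraries with reads down-sampled to a like depth. Cell Ranger is given as 5.0.0 in the matrix header and 3.1.0 in the submitters' processing notes. The deposited barcodes (unit other) carry a suffix for the library, which was tied to a sample by the number of cells in the summaries.

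Cells were kept when their UMIs and genes, on a log10 scale, lay within 2 SD of the library mean and mitochondrial genes took no more than 10%, which left 151555303 UMIs in library A and 122938843 in library B. No doublet caller was run. A cell passed a class with at least 3 UMIs (Chon and Mesen 4) over at least 2 of its markers. The 1684 and 1813 cells that passed several classes other than Mesen were left out as mixed. A cell that passed Mesen and 1 other class took the other class, so the other classes can hold cells with Mesen markers. In library A these markers summed to 1807 CPM in Peri-like and 1081 CPM in Osteo-like cells, beside 2532 CPM in Mesen-like cells. UMIs were summed per library and class, scaled to the total of the same cells (CPM) and compared as ratios with exact 95% intervals from the binomial split, and shares were given exact Clopper-Pearson intervals. Genes needed 200 UMIs over the groups compared, and with 1 library a group no p was computed. Cells of 1 library are not replicates.

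Genes named are Srsf2, the paralog pairs, the 5 highest and 5 lowest members by ratio, by spread and (highest only) by level, members under 200 UMIs, and genes of the lists. The members, markers and lists were chosen with earlier results of these data known. Other members named for passing the limit of 0.32 or for lying on one side in all classes were added after their values were seen. Some genes that these rules name are not reported here. Intervals were tested on simulated sums drawn from the Poisson model that they assume. That simulation holds no clustering of UMIs by cell, so it cannot show how the intervals cover real counts. Tools were SciPy 1.17.1, pandas 2.3.3, NumPy 2.4.6 and matplotlib 3.10.9 under Python 3.11.15.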

Additional observations from a re-analysis of the deposited data

Results flagged for a closer look

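Features with pseudogene names, which the list of members leaves out, held a signal above the limit that a count of 0 allows. Rpl9-ps6 had 70.7 CPM in library A and 67.6 CPM in library B, Rpl10-ps3 had 64.1 and 56.2 CPM, and Rpl36a-ps1 had 14.4 and 14.0 CPM. Whether these UMIs come from the pseudogenes or from their parents was not tested.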

How the results depend on the processing

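No paired analysis was possible because there is 1 library of each kind. The share over all kept cells, a ratio of -0.073, was -0.075 without limits on barcodes and -0.075 without hemoglobin and mitochondrial genes in the denominator, -0.055 with a mitochondrial limit of 5% and -0.020 with the same class shares in both libraries. In SKM-like cells the ratio of -0.0055 changed sign with the mitochondrial limit of 5% (0.0073), stricter marker limits (0.011) and the median share per cell (0.0024), and was -0.012 without limits on barcodes, -0.011 without hemoglobin and mitochondrial genes and -0.018 without cells that also passed the Mesen limits, a setting added after seeing the data. In Mesen-like cells the ratio of 0.013 was 0.016 with the 5% limit, 0.0088 without hemoglobin and mitochondrial genes, 0.0024 with stricter limits and 0.0044 by the median per cell. No difference between the libraries is read from either class. In Ery-like cells the ratio of -0.88 was 0.30 without the cycling cells, a setting added after seeing the data. Myog-high over Pax7-positive cells stayed above 0 in library A, at 0.14 with stricter limits, 0.12 without limits on barcodes and 0.14 without sarcomere genes, and in library B, at 0.14 by the median per cell, 0.14 without limits on barcodes and 0.18 without sarcomere genes. The number of members past 0.32 on the log2 scale, 9 in all kept cells, was between 6 and 10 under the settings tried and 2 in each of them in Mesen-like cells. The median spread over classes was 0.30 in library A and 0.32 in library B with stricter limits, under which the Ery-like class has too few cells, and 0.28 and 0.31 without that class, chosen after seeing the data. The Rpl22l1 share in Mesen-like cells of library B was 55.8% with stricter limits. The depth limits Rpl39l, Rpl3l and Rpl10l most, and 1 library of each kind limits every ratio.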
